A study of Mus musculus with 2 samples.

Results

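The 8 genes described here, *Gypc*, *Epb41*, *Epb42*, *Sptb*, *Ank1*, *Slc4a1*, *Rhd* and *Rhag*, encode proteins of the red cell membrane and of the spectrin skeleton beneath it. They were taken by name from the 29453 genes of the deposited tables of spliced and unspliced molecules, and all 8 were found in both. The tables hold 18233 cells of whole chimeric embryos, made by placing tdTomato-expressing mouse embryonic stem cells into C57BL/6 blastocysts. The injected cells (Gata1-, tdTom+) derived from 1 clone with a 38 bp frameshift in exon 4 of *Gata1*, the master regulator of red cell genes, and the host cells (tdTom-) were wildtype. Cells of 6 embryos were sorted on tdTom into 2 fractions, and each fraction gave 1 library. The age labels read E8.5 for tdTom+ and E8.6 for tdTom-, although both fractions came from the same embryos, which the study harvested at E8.5. With 1 library per fraction there was no replicate, so no test between fractions was run. All intervals are 95% intervals that cover counting error only, and genotype cannot be told apart from library or clone.

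The red cell membrane is fastened to its skeleton at 2 kinds of anchor. At the first, ankyrin ties beta-spectrin to the anion exchanger band 3, protein 4.2 binds to both, and the Rh proteins sit in the same complex. At the second, protein 4.1 joins the tips of spectrin to actin and to glycophorin C. Primitive erythroid cells of the yolk sac, the first red cells of the mouse embryo, build this structure while they still carry a nucleus and fill with embryonic globins.

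In GRCm38, *Epb42* lies at 2:121017891-121037072, *Epb41* at 4:131923413-132075321, *Rhd* at 4:134864536-134896172, *Ank1* at 8:22974844-23150497, *Slc4a1* at 11:102348824-102366203, *Sptb* at 12:76580488-76710547 and *Rhag* at 17:40811126-40840754. *Ank1* (175.7 kb), *Epb41* (151.9 kb) and *Sptb* (130.1 kb) are long genes, and the other 5 span 17.4 kb to 31.7 kb. No annotated gene overlaps *Gypc*, *Epb42*, *Slc4a1*, *Rhd* or *Rhag*. *Ank1* is overlapped by 5 genes, among them *Mir486* on the same strand, *Epb41* by 3 and *Sptb* by 2, among them *Plekhg3* on the opposite strand.

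RefSeq start sites (GRCm38.p6) were at hand for 5 of the genes, and the 250 bases before the start are shown for 4, among them *Rhd* and *Rhag*, partners in 1 complex whose levels differed in tdTom+ cells. They are printed 5' to 3' on the strand of the gene, and capitals mark on either strand the word AGATAA, the word AGATAG, the word TGATAA and the word TGATAG, which GATA factors are known to bind.
Rhd, chr4:134864286-134864535, plus strand: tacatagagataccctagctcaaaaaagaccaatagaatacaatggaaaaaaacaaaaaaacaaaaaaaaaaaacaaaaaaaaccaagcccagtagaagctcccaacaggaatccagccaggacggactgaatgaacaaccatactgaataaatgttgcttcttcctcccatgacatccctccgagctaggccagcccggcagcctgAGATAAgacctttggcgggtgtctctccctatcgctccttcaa
Rhag, chr17:40810899-40811148, plus strand: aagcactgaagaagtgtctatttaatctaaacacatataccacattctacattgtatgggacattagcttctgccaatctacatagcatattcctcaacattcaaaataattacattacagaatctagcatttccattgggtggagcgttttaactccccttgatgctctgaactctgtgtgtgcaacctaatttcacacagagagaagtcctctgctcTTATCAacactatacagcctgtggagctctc
Epb42, chr2:121036878-121037127, minus strand: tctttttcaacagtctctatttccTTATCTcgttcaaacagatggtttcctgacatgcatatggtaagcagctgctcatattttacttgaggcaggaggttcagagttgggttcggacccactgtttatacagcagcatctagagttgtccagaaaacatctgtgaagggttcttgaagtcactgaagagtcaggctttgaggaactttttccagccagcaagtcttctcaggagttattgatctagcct
Sptb, chr12:76710548-76710797, minus strand: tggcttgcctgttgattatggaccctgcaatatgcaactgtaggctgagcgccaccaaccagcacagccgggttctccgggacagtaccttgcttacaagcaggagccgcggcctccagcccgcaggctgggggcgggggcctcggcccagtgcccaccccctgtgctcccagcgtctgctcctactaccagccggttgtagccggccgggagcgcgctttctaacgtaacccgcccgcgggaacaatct
*Rhd* held AGATAA 43 to 38 bases before its start, and *Rhag* held TGATAA on the opposite strand 31 to 26 bases before its start. *Epb42* held AGATAA on the opposite strand 226 to 221 bases before its start, and the window of *Sptb* held none of the 4 words. Distances count from the RefSeq starts, which differ from the gene spans given above for *Epb42* and *Rhag*. Most of the *Epb42* window and the end of the *Rhag* window lie within those spans, while the marked words lie outside them. *Epb41*, the gene not shown, has 3 start sites at hand. It held TGATAG on the opposite strand 184 to 179 bases before the first, and no word before the others. Thus 4 of the 5 genes held a word in at least 1 window, a count per gene that took *Epb41* over 3 windows. Of 32851 RefSeq windows of this length 26.5% held at least 1 of the words, a share per window. A match describes the letters, not a bound site.

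After removal of called doublets 17252 cells were kept, and deposited cells had medians of 17598 (tdTom+) and 15996 (tdTom-) spliced UMIs. Blood cells numbered 1629 in the tdTom+ and 1479 in the tdTom- fraction and fell into different sub-clusters. Of the tdTom- blood cells, 310 formed an early and 1082 formed later erythroid-like sub-clusters, and 51 were megakaryocyte-like. The erythroid-like sub-cluster that drew the most tdTom+ blood cells in the matching below was called early, and the other 4 later. Globin genes made up 5.10% of spliced UMIs in the early and 11.4% in the later tdTom- cells. Of the tdTom+ blood cells, 1131 were blood progenitor-like, 289 lay in an unnamed sub-cluster led by *Spi1*, 114 in an unnamed one led by *Cd34* and 91 were myeloid-like, while 3 fell in erythroid-like sub-clusters. The libraries shared 18 barcodes. *Gata1* mRNA, which a frameshift need not remove, was at 26.9 CPM (UMIs of the gene per 1000000 spliced UMIs) in tdTom+ and 131 CPM in tdTom- blood cells.

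Over all blood cells, 5 of the 8 genes were at least 2-fold lower in tdTom+ cells and none was 2-fold higher. *Ank1* and *Rhd* gave few spliced UMIs in tdTom+ blood, *Slc4a1*, *Sptb* and *Epb42* were lower but present, and *Epb41*, *Gypc* and *Rhag* differed by less than 2-fold. A gene counted as lower or higher where the log2 ratio of CPM was at least 1 in size, its interval excluded 0 and both groups together held at least 100 UMIs. Among 9482 genes with enough UMIs, 3.14% were lower and 11.3% higher by this rule. The median log2 ratio was -2.39 for the 8 genes and 0.22 for all genes. Of all genes past the fold 78.3% were higher, and 67.7% when ratios were centred on the median of all genes.

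*Ank1*, the ankyrin of the first anchor, gave 5 spliced UMIs in tdTom+ blood cells, or 0.142 CPM (0.0460 to 0.331). In tdTom- blood cells it gave 537, or 18.8 CPM (17.2 to 20.4), 132-fold more, and the log2 ratio was -7.05 (-8.68 to -5.82). Neural cells of the tdTom+ library, a type that should lack the gene, gave 0 UMIs in 965 cells with an upper limit of 0.224 CPM, so the interval of tdTom+ blood overlapped this background in the spliced layer. In the unspliced layer it did not sit at background, with 90 UMIs or 2.55 per 1000000 spliced UMIs in tdTom+ blood against 7 or 0.424 in those neural cells. *Rhd*, which encodes the Rh polypeptide, gave 13 UMIs or 0.369 CPM (0.196 to 0.630) in tdTom+ and 1069 or 37.4 CPM (35.2 to 39.7) in tdTom- blood cells. Its log2 ratio was -6.66 (-7.58 to -5.88), and its level in neural cells of the tdTom+ library, 0.606 CPM (0.291 to 1.11), was no lower than in tdTom+ blood. None of these *Ank1* and *Rhd* UMIs lay in the 3 tdTom+ cells of erythroid-like sub-clusters, but 3 of the 5 of *Ank1* and 2 of the 13 of *Rhd* came from the 65 tdTom+ cells with over 5% of UMIs on globin genes. Without those tdTom+ cells, and with all tdTom- blood cells kept, the ratio of *Ank1* was -8.31 (-11.36 to -6.45).

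*Slc4a1*, which encodes band 3, was at 9.73 CPM (8.72 to 10.8) in tdTom+ against 115 CPM (111 to 119) in tdTom- blood cells, a log2 ratio of -3.56 (-3.73 to -3.40). Of its 343 UMIs in tdTom+ blood, 106 came from 65 cells with over 5% globin UMIs. Without those 65 cells the ratio was -4.04 (-4.23 to -3.84). This cut was made in the tdTom+ fraction alone, and tdTom- cells with over 5% globin UMIs were kept. *Sptb*, the beta chain of erythroid spectrin, was at 3.37 CPM (2.80 to 4.04) against 21.0 CPM (19.4 to 22.8), a log2 ratio of -2.64 (-2.93 to -2.35). *Epb42*, which encodes protein 4.2, was at 9.78 CPM (8.78 to 10.9) against 43.3 CPM (40.9 to 45.8), a log2 ratio of -2.15 (-2.32 to -1.97). For none of these genes did the intervals of the fractions overlap.

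*Epb41*, *Gypc* and *Rhag* differed by less than 2-fold between the fractions. *Epb41*, which encodes protein 4.1, was at 135 CPM (131 to 139) in tdTom+ and 133 CPM (129 to 138) in tdTom- blood cells. Its log2 ratio of 0.02 (-0.05 to 0.08) became -0.21 (-0.27 to -0.15) when centred on the median of all genes. *Gypc*, which encodes glycophorin C, was at 78.5 CPM (75.6 to 81.5) against 95.2 CPM (91.6 to 98.8), a log2 ratio of -0.28 (-0.35 to -0.20), or -0.50 (-0.58 to -0.42) centred, and its intervals did not overlap. *Rhag*, the glycoprotein that assembles with the Rh polypeptide, was at 14.5 CPM (13.3 to 15.8) against 18.1 CPM (16.5 to 19.7), a log2 ratio of -0.32 (-0.50 to -0.14), or -0.54 (-0.72 to -0.36) centred, far from the ratio of *Rhd*.

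**Figure D1:**
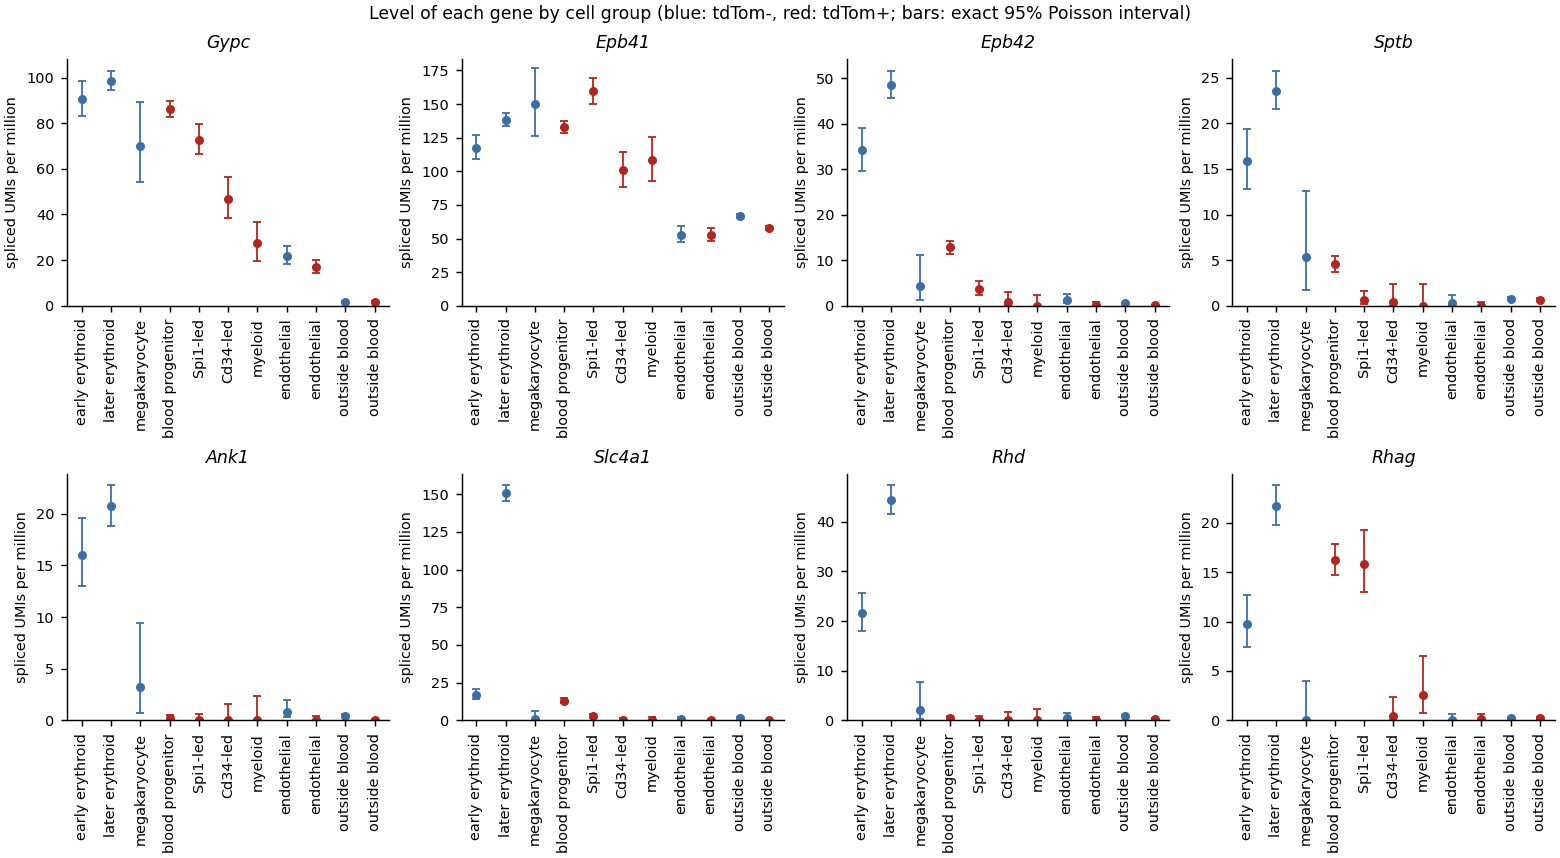
CPM of each gene (vertical axes, a separate scale for each gene) by cell group (horizontal axis), tdTom- in blue and tdTom+ in red, with exact Poisson 95% intervals. *Ank1* and *Rhd* lie near 0 in tdTom+ blood progenitor-like cells, at 0.201 CPM and 0.483 CPM. *Rhag* is at 16.2 CPM in those cells and 9.79 CPM in tdTom- early erythroid-like cells.

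Within tdTom+ blood the genes varied by cell group. The clusters were built without the 8 genes, so none of these levels entered the grouping. Genes with much the same levels across groups, such as *Alas2* and *Trim10*, were not left out, so the grouping was not independent of these levels. *Rhag* was at 16.2 CPM (14.7 to 17.9) in blood progenitor-like and 15.9 CPM (13.0 to 19.3) in *Spi1*-led cells, which did not differ beyond counting error, and at 2.54 CPM (0.693 to 6.51) in myeloid-like cells. *Slc4a1* was at 13.0 CPM (11.6 to 14.5) in blood progenitor-like and 2.62 CPM (1.53 to 4.20) in *Spi1*-led cells. *Epb42* had the same order, with 12.8 CPM and 3.70 CPM, and so had *Sptb*, with 4.55 CPM and 0.617 CPM. *Epb41* was higher in the *Spi1*-led cells, at 159 CPM (149.8 to 169) against 133 CPM (129 to 138). *Gypc* was at 86.2 CPM in blood progenitor-like, 72.8 CPM in *Spi1*-led, 46.7 CPM in *Cd34*-led and 27.3 CPM in myeloid-like cells, in an order whose neighbouring intervals did not overlap.

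As only 2 tdTom+ cells fell in the later erythroid sub-clusters, a second comparison took tdTom+ cells nearest to the early erythroid-like sub-cluster. For 1313 cells, or 80.6% of tdTom+ blood, that sub-cluster was the most frequent among the 15 nearest tdTom- blood and endothelial cells. It had been called early for drawing the most tdTom+ blood cells, so that choice bears on this share. The 1313 cells were set against the 310 tdTom- cells of the sub-cluster. The sub-clusters with most tdTom+ blood cells (726, 371 and 289) held 2, 0 and 1 tdTom- cells, so few tdTom- cells of their own sub-cluster were there to match. Of the 7 genes with enough UMIs, *Rhd*, *Sptb* and *Epb42* were lower and none was higher. With cells thinned to 5000 UMIs only *Epb42* still had enough UMIs and passed the fold, and with cosine distance in matching *Slc4a1* passed it too, at -1.34 (-1.71 to -0.96). Among 8395 genes 2.75% were lower and 6.52% higher, and the median log2 ratio was -0.84 for the 7 genes and 0.08 for all. The states still differed, since erythroid markers summed to 19586 CPM in the tdTom+ against 51056 CPM in the tdTom- cells (3 of 8 lower). Blood progenitor markers summed to 561 against 159 CPM (4 of 7 higher) and myeloid markers to 125 against 4.22 CPM (4 of 7 higher, with *Csf1r*, *Fcer1g*, *Tyrobp* and *Ptprc* at 0 in tdTom- cells). Megakaryocyte markers summed to 23.1 against 67.7 CPM (1 of 7 lower, with *Ppbp* at 0 in tdTom- cells) and endothelial markers to 10.9 against 29.9 CPM (1 of 6 lower, with *Emcn* at 0 in tdTom- cells). The part of these differences in the results was not tested.

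*Ank1* missed the minimum of UMIs, with 3 in tdTom+ (0.103 CPM) and 95 in tdTom- cells (16.0 CPM), a log2 ratio of -7.28 (-9.59 to -5.69). *Rhd* gave 7 UMIs (0.240 CPM) against 128 (21.6 CPM), a log2 ratio of -6.49 (-7.83 to -5.41). *Sptb* was at 3.95 CPM (3.26 to 4.74) against 15.9 CPM (12.8 to 19.4), with a log2 ratio of -2.01 (-2.41 to -1.60). *Rhd* and *Sptb* transcripts were thus lower also in the tdTom+ cells nearest to early erythroid cells. *Epb42* was at 11.1 CPM (9.91 to 12.4) against 34.1 CPM (29.6 to 39.1), with a log2 ratio of -1.62 (-1.88 to -1.36).

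*Slc4a1* differed less here than over all blood cells, at 9.54 CPM (8.45 to 10.7) in tdTom+ cells against 101 UMIs in 310 tdTom- cells, or 13.9 to 20.7 CPM. Its log2 ratio of -0.84 (-1.17 to -0.49) did not overlap that over all blood cells. *Rhag* was on the other side of 0, at 16.1 CPM (14.7 to 17.7) against 9.79 CPM (7.43 to 12.7), with a log2 ratio of 0.72 (0.32 to 1.14). With every cell thinned to 5000 UMIs the *Rhag* ratio was 0.03 (-0.62 to 0.73), so a difference was not detectable at that depth. *Gypc* had a log2 ratio of -0.09 (-0.23 to 0.05), and *Epb41* of 0.22 (0.10 to 0.34), which was 0.04 (-0.04 to 0.11) with unspliced UMIs added.

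**Figure D2:**
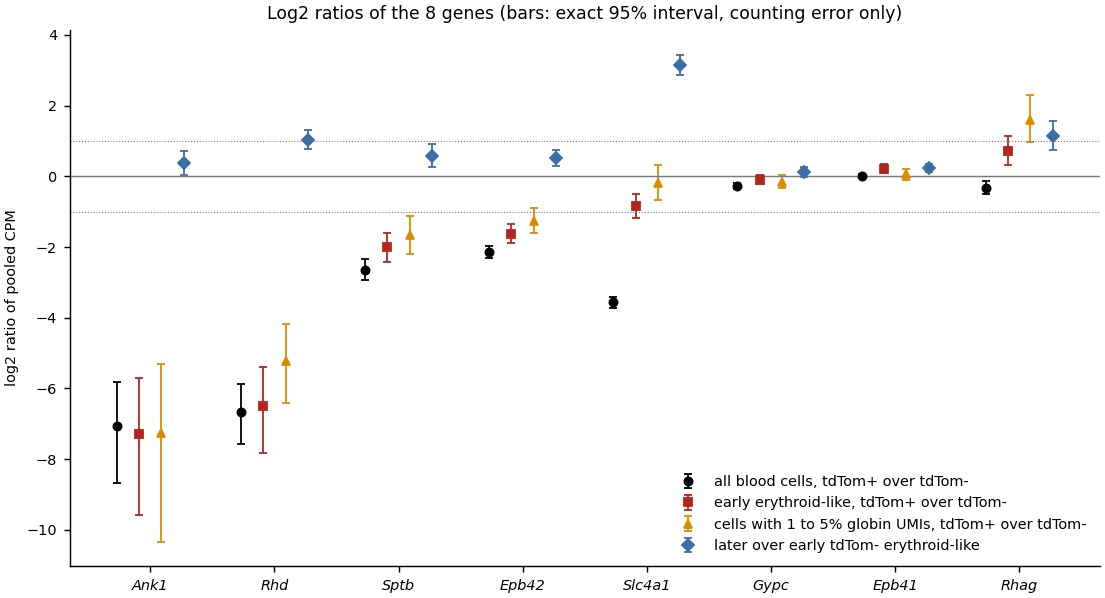
Log2 ratio of pooled CPM of each gene (vertical axis) in 4 comparisons, with exact 95% intervals for counting error and dotted lines at a 2-fold difference. *Ank1* and *Rhd* have the lowest ratios of tdTom+ over tdTom- cells, *Slc4a1* moves from -3.56 over all blood cells to -0.18 at 1 to 5% globin, and *Slc4a1* has the highest ratio of later over early tdTom- cells, 3.14.

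Within the tdTom- fraction, 3 of the 8 genes were at least 2-fold higher in later than in early erythroid-like cells and none was lower, where 0.702% of 7545 genes were higher and 1.39% lower. Of all genes past the fold 33.5% were higher, and 53.2% when centred on their median log2 ratio of -0.16. *Slc4a1* was at 151 CPM (145 to 156) in later cells, with a log2 ratio over early cells of 3.14 (2.86 to 3.44). *Rhag* was at 21.7 CPM (19.8 to 23.8) in later cells, with a ratio of 1.15 (0.75 to 1.57), and *Rhd* at 44.4 CPM (41.6 to 47.4), with a ratio of 1.04 (0.77 to 1.32). *Rhag* and *Rhd* were close to the 2-fold, and only 1 gene, *Slc4a1*, passed it when cells were thinned to 5000 UMIs or weighted equally.

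The other 5 genes were below the 2-fold between early and later cells. *Sptb* was at 23.6 CPM (21.6 to 25.8) in later cells, with a log2 ratio of 0.57 (0.25 to 0.91). *Epb42* was at 48.5 CPM (45.6 to 51.6), with a ratio of 0.51 (0.29 to 0.73), and *Ank1* at 20.7 CPM (18.8 to 22.8), with a ratio of 0.37 (0.05 to 0.71). *Epb41* had a ratio of 0.23 (0.11 to 0.36) and *Gypc* of 0.12 (-0.01 to 0.26). The interval of *Slc4a1* lay above those of the other 7 genes.

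The blood cells were next ordered by the share of their spliced UMIs on 7 globin genes, a readout that the 8 genes do not enter, and levels were taken without globin UMIs. Among tdTom- cells all 8 genes had their highest level over 20% globin, but in this range of 32 cells only the interval of *Slc4a1* lay above that at 5 to 20%. *Slc4a1* was at 13.8 CPM (9.95 to 18.7) at 1 to 5% globin (180 cells), 148 CPM (142 to 153) at 5 to 20% (1181 cells) and 334 CPM (284 to 389) over 20%. *Ank1* was at 16.1 CPM (11.9 to 21.3), 22.3 CPM (20.4 to 24.5) and 33.1 CPM (18.9 to 53.8) in the same ranges, of which neighbours overlapped. Band 3 mRNA thus spread over a wider range than ankyrin mRNA across these cells.

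At 1 to 5% globin, with 878 tdTom+ and 180 tdTom- cells, *Slc4a1* was at 12.2 CPM (10.7 to 13.9) in tdTom+ cells and its log2 ratio was -0.18 (-0.66 to 0.33). A difference in *Slc4a1* was therefore not detectable in this range. *Ank1* was at 0.106 CPM against 16.1 CPM, a ratio of -7.25 (-10.33 to -5.32), and *Rhd* at 0.478 CPM against 17.8 CPM, a ratio of -5.22 (-6.42 to -4.19). *Sptb* had a ratio of -1.66 (-2.19 to -1.12) and *Epb42* of -1.26 (-1.61 to -0.90). *Sptb* and *Epb42* were thus lower in tdTom+ cells also within this range, while *Ank1* and *Rhd*, whose intervals lay below 0, held under 100 UMIs in both fractions together. These too were cells of different kinds. Of the tdTom+ cells 769 were blood progenitor-like and 0 erythroid-like, while 146 of the tdTom- cells were early and 23 later erythroid-like. Median globin was 2.28% in tdTom+ and 3.70% in tdTom- cells of the range. The part of these differences in the ratios was not tested, and no share of all genes past the fold is given for this range. *Rhag* was higher, at 20.9 CPM (18.8 to 23.0) against 6.91 CPM (4.27 to 10.6), a ratio of 1.59 (0.96 to 2.30).

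*Rhag* was seen also at 0.1 to 1% globin, where 403 tdTom+ cells gave 69 UMIs (7.83 CPM, 6.09 to 9.91) and 52 tdTom- cells gave 0, with an upper limit of 4.57 CPM. These were cells of different kinds, since 32 of the tdTom- cells were megakaryocyte-like and 10 early erythroid-like, while 265 of the tdTom+ cells were blood progenitor-like. At 5 to 20% globin 65 tdTom+ cells remained, of which 59 were blood progenitor-like. Of the 1181 tdTom- cells in this range, 1027 were later erythroid-like. Median globin was 6.05% in the tdTom+ and 10.1% in the tdTom- cells, a difference whose part in the ratios was not tested. *Rhag* had a ratio of 0.41 (-0.09 to 0.87) there. *Slc4a1* was at 79.0 CPM (64.7 to 95.6) in the tdTom+ cells, a ratio of -0.90 (-1.19 to -0.62). *Ank1* gave 3 UMIs in them, or 2.24 CPM (0.461 to 6.54), a ratio of -3.32 (-5.60 to -1.76), closer to 0 than at 1 to 5% globin but with an overlapping interval. *Rhd* gave 2, a ratio of -4.98 (-8.03 to -3.13). No tdTom+ blood cell had over 20% globin.

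**Figure D3:**
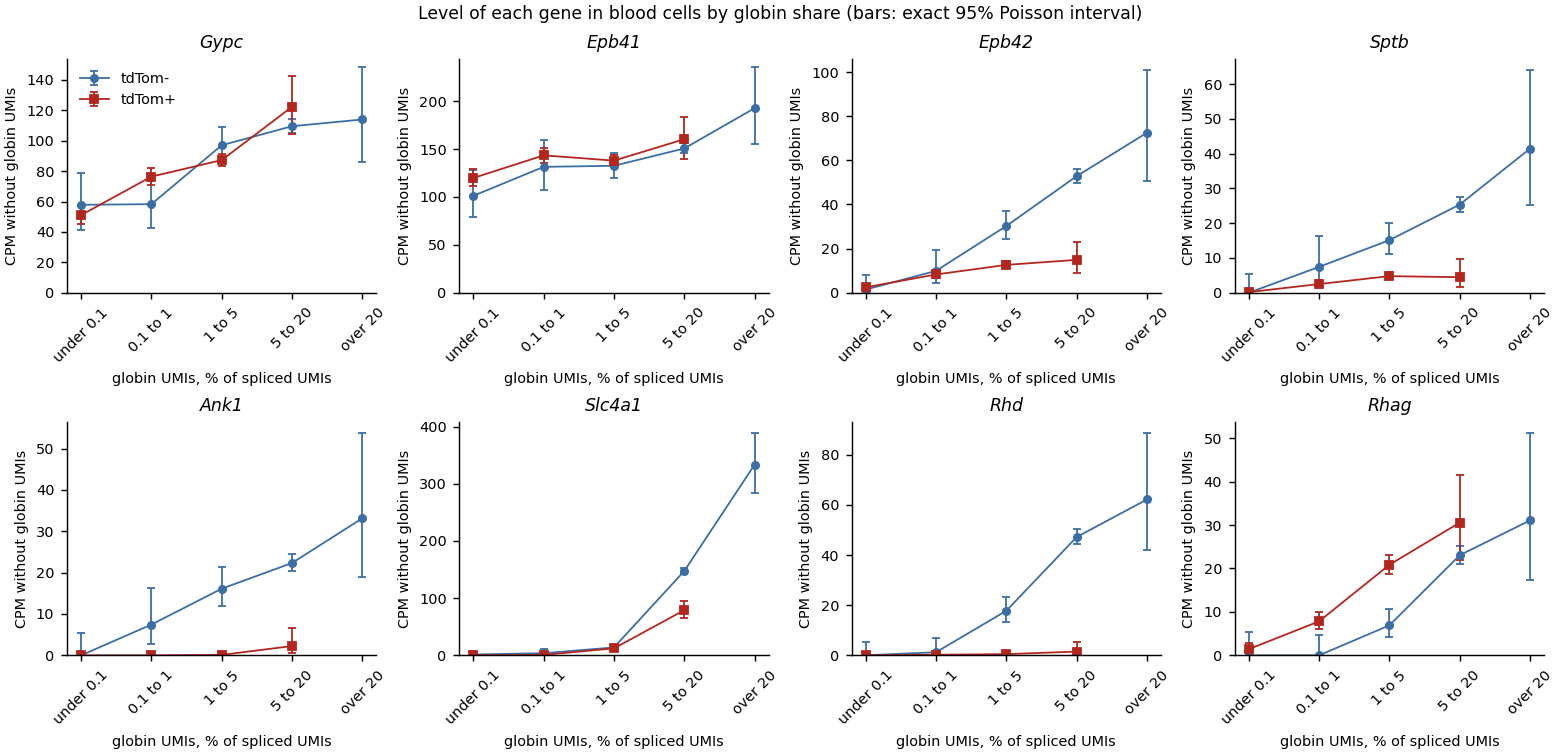
Level of each gene in UMIs per 1000000 non-globin UMIs (vertical axes) in blood cells of 5 ranges of globin share (horizontal axes), tdTom- as blue circles and tdTom+ as red squares, with exact Poisson 95% intervals. At 1 to 5% globin the fractions overlap for *Slc4a1*, *Gypc* and *Epb41*, *Rhag* is higher in tdTom+ cells, and *Ank1* is at 0.106 CPM in tdTom+ against 16.1 CPM in tdTom- cells. Most tdTom+ cells of that range were blood progenitor-like and most tdTom- cells early erythroid-like.

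Unspliced molecules, which hold intron sequence, gave a second readout of the same genes. The unspliced share ranged widely between genes. In tdTom- early erythroid-like cells it was 91.1% (89.2 to 92.7) for *Ank1*, 87.2% (84.5 to 89.5) for *Sptb* and 62.6% (60.3 to 64.8) for *Epb41*, the 3 longest genes. It was 50% (40.6 to 59.4) for *Rhag*, 30.3% (27.0 to 33.6) for *Gypc*, 11.8% (7.92 to 16.7) for *Epb42*, 9.22% (5.00 to 15.3) for *Rhd* and 3.81% (1.05 to 9.47) for *Slc4a1*. Over all genes the share was 10.6% in these cells and 11.1% in matched tdTom+ cells.

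For *Ank1* the unspliced layer held more molecules than the spliced one, with 74 in matched tdTom+ and 971 in tdTom- early cells. Its unspliced log2 ratio was -6.01 (-6.37 to -5.67), and that of *Sptb* was -2.43 (-2.60 to -2.27). For both genes the intervals of the 2 layers overlapped. The ratio of *Rhag* lay above 0 in the unspliced layer too, at 0.90 (0.50 to 1.31) from 531 tdTom+ and 58 tdTom- UMIs. It was below the 2-fold in both layers. *Epb41* had an unspliced ratio of -0.08 (-0.17 to 0.02), below its spliced one.

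*Rhd* stood apart, with an unspliced share of 74.1% (53.7 to 88.9) in matched tdTom+ cells, from 20 unspliced and 7 spliced UMIs. Its unspliced level there, 0.686 per 1000000 spliced UMIs, was near the 0.528 of tdTom+ cells outside blood. In those cells the unspliced share was 64.4% (53.7 to 74.3), and the 2 intervals overlapped. The unspliced ratio of *Rhd* was -1.68 (-2.76 to -0.55) in the early comparison and -2.25 (-2.98 to -1.58) over all blood cells, and neither interval overlapped that of the spliced layer.

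**Figure D4:**
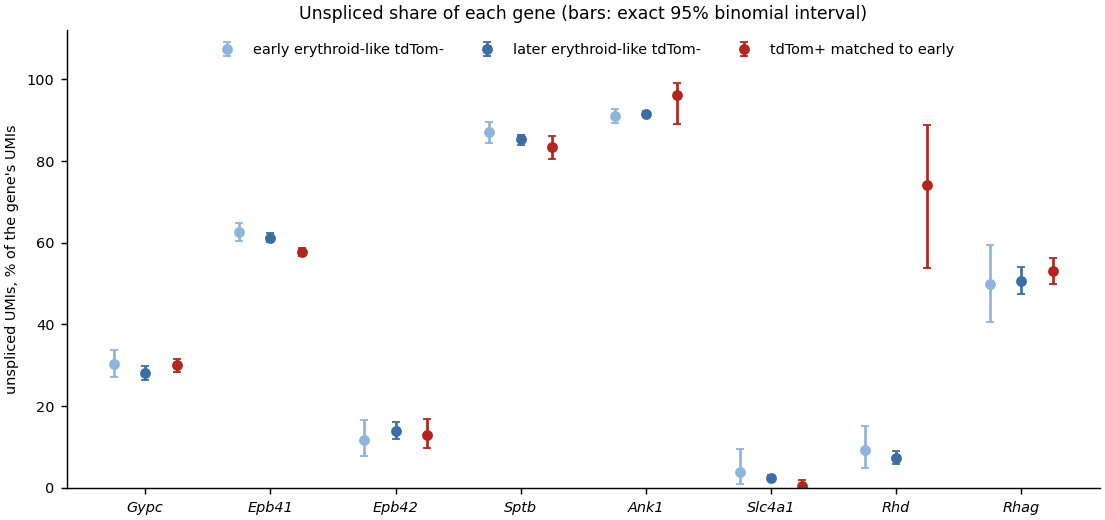
Unspliced UMIs as a percentage of all UMIs of each gene (vertical axis) in tdTom- early, tdTom- later and tdTom+ matched cells, with exact binomial 95% intervals. Values in tdTom- early cells run from 3.81% for *Slc4a1* to 91.1% for *Ank1*, and the tdTom+ value of *Rhd*, 74.1%, lies far from both tdTom- values.

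In single cells thinned to 5000 spliced UMIs, a tdTom- later erythroid-like cell held a UMI of 2.03 ± 1.16 of the 8 genes (SD over 1054 cells). The mean was 1.35 ± 1.03 in tdTom- early cells (306) and 1.01 ± 0.81 in matched tdTom+ cells (1301). Most of both means came from *Epb41*, seen in 46.4% of early and 49.3% of matched cells, and *Gypc*, seen in 36.6% and 33.4%. Cells with 4 or more of the genes made up 11.4% (9.53 to 13.5) of later, 1.96% (0.723 to 4.22) of early and 0.231% (0.0476 to 0.672) of matched tdTom+ cells. Cells with 4 or more of the genes were thus most frequent among the later cells. Whether this exceeds what the shares of the single genes would give was not tested. Outside blood the mean was 0.31 in tdTom- and 0.27 in tdTom+ cells. Thinning left out 28, 4 and 12 cells of the 3 blood groups, and without it their means were 4.56, 3.26 and 2.39.

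*Rhd* was seen in 11.1% (7.82 to 15.2) of thinned tdTom- early cells and in 0 of 1301 matched tdTom+ cells, which allows a share of up to 0.231% of cells with a UMI at this depth (3 counts of the total, with an exact upper limit of 0.283%), and unthinned in 30.3% and 0.533%. *Ank1* was seen in 7.52% (4.82 to 11.1) and 0.154% (0.0186 to 0.554) after thinning and in 26.8% and 0.228% before it. In tdTom- neural cells the thinned shares were 0.455% for *Rhd* and 0.0650% for *Ank1*. In neural cells of the tdTom+ library *Rhd* was seen in 0.106% and *Ank1* and *Slc4a1* in 0 of 942 thinned cells, which allows up to 0.318%, and unthinned *Rhd* was seen in 1.04%, no less than in matched tdTom+ cells. *Slc4a1* was seen in 47.3% (44.3 to 50.4) of later, 6.86% (4.30 to 10.3) of early and 4.84% (3.74 to 6.15) of matched tdTom+ cells, the last 2 with overlapping intervals, against 0.975% of tdTom- neural cells. Unthinned, the early and matched shares were 21.6% (17.2 to 26.6) and 12.1% (10.4 to 14.0), whose intervals did not overlap.

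**Figure D5:**
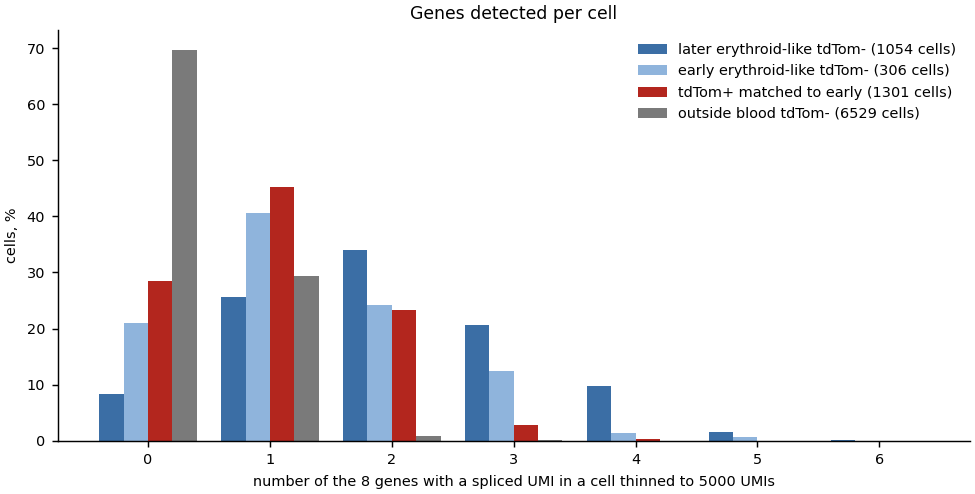
Percentage of cells (vertical axis) by the number of the 8 genes with a spliced UMI after thinning to 5000 UMIs (horizontal axis), by cell group. The highest share of later tdTom- erythroid-like cells is at 2 genes (34.1%) and that of matched tdTom+ cells at 1 gene (45.2%), while 69.7% of tdTom- cells outside blood hold none.

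In the 51 megakaryocyte-like tdTom- cells *Epb41* was at 149.9 CPM (126 to 177) and *Gypc* at 70.1 CPM (54.1 to 89.3), while each of the other 6 genes gave at most 5 spliced UMIs. The megakaryocyte-like sub-cluster held 1 tdTom+ cell, so the 82 tdTom+ cells matched to it lay almost all in other sub-clusters. These 82 cells gave 19 UMIs of *Rhag* (11.9 CPM, 7.15 to 18.6) where the tdTom- cells gave 0, and the exact interval of the log2 ratio began at 1.44. The part of their different states was not tested. Unspliced *Sptb* gave 36 UMIs in tdTom- and 0 in these tdTom+ cells. In endothelial-like cells (495 tdTom+, 359 tdTom-) *Gypc* was at 17.1 CPM (14.5 to 20.1) and 22.0 CPM (18.3 to 26.1). It was highest there in the *Lyve1*-led sub-cluster, at 40.8 CPM (32.6 to 50.3) in tdTom+ and 43.4 CPM (32.2 to 57.3) in tdTom- cells, above the 6.33 to 21.2 CPM of the other 4 sub-clusters. *Epb41* was at 52.6 CPM and 52.8 CPM in endothelial-like cells, and each of the other 6 genes gave at most 8 spliced and 16 unspliced UMIs in either fraction.

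Outside blood and endothelium (6423 tdTom+ and 6846 tdTom- cells) *Epb41* was expressed throughout, at 58.1 CPM (56.7 to 59.5) in tdTom+ and 67.0 CPM (65.5 to 68.6) in tdTom- cells, and over clusters its median level was 62.6 and 68.4 CPM. The other 7 genes had median levels over clusters of 0 to 1.69 CPM. An unnamed, shallow cluster of 12 tdTom+ and 61 tdTom- cells (median 1049 UMIs), led by *Il1b*, *AY036118* and *Cd74*, was counted here and may hold blood cells. Of 5 genes with enough UMIs *Slc4a1* and *Rhd* were lower in tdTom+ cells and none was higher, where 1.84% of 13156 genes were lower and 0.35% higher. The level of *Slc4a1* was 0.109 CPM in the tdTom+ fraction and 1.85 CPM in the other, giving a log2 ratio of -4.08 (-5.05 to -3.24), and *Rhd* had a ratio of -1.56 (-2.19 to -0.97). Below the minimum of UMIs, *Ank1* had a ratio of -2.95 (-4.47 to -1.71) from 6 tdTom+ and 45 tdTom- UMIs. *Epb42* had -2.12 (-3.12 to -1.23) from 13 and 55, and *Rhag* had -0.28 (-1.17 to 0.59). In the unspliced layer *Rhd* was on the other side of 0, with 58 tdTom+ and 33 tdTom- UMIs and a ratio of 0.77 (0.13 to 1.44), so its direction outside blood depended on the layer. Globin UMIs, a sign of RNA from blood cells, made up 0.0195% and 0.102% of spliced UMIs in these cells, and their part in the difference was not tested.

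Single clusters outside blood stood above these levels. *Rhd* was at 11.7 CPM (7.31 to 17.7) in the 74 tdTom- cells of the extraembryonic ectoderm-like cluster led by *Rhox5*, from 22 of the 92 UMIs of tdTom- cells outside blood. That cluster held 1 tdTom+ cell, and its part in the *Rhd* ratio outside blood was not tested. *Slc4a1* was at 1.59 CPM (0.328 to 4.65) there. *Sptb* was at 7.29 CPM (3.99 to 12.2) in 119 tdTom+ and 6.08 CPM (1.97 to 14.2) in 54 tdTom- cells of a surface ectoderm-like cluster led by *Tac2*, with 65 and 41 unspliced UMIs. *Ank1* and *Slc4a1* gave 0 spliced UMIs in that cluster. *Gypc* was highest in an unnamed cluster led by *Tdo2*, at 5.74 CPM (4.25 to 7.59) in tdTom+ and 8.39 CPM (5.91 to 11.6) in tdTom- cells.

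The 31 other genes of the membrane and skeleton listed beside the 8 held both lower and higher ones. Over all blood cells 11 of 29 with enough UMIs were lower and 3 higher in tdTom+ cells, with a median log2 ratio of -0.23, where 3.14% of all genes were lower and 11.3% higher. The share of higher genes was thus near that of all genes. In the early comparison 8 of 27 were lower and 3 higher, with a median of -0.20, where 2.75% of all genes were lower and 6.52% higher. Among the lower ones were *Add2*, the beta-adducin of the spectrin junction, with an early ratio of -3.51 (-3.85 to -3.17), *Dmtn*, the actin-bundling dematin, with -2.87 (-3.32 to -2.43), and *Ermap*, the Scianna blood group protein, with -1.76 (-2.17 to -1.35). The higher ones were *Cd44*, a hyaluronan receptor, with 2.85 (2.27 to 3.50), *Add3*, the gamma-adducin, with 1.67 (1.37 to 1.98), and *Mpp1*, which encodes p55, with 1.07 (0.42 to 1.79). Over all blood cells *Flot1* was the gene higher beside *Cd44* and *Add3*, with 1.01 (0.84 to 1.18). From early to later tdTom- cells 2 of 27 were higher, *Kel*, the Kell blood group protein, with 1.43 (0.97 to 1.93), and *Ermap*, with 1.39 (1.07 to 1.72), and none was lower, where 0.702% of all genes were higher and 1.39% lower. Outside blood 2 of 25 were lower, *Kcnn4* among them with -1.06 (-1.71 to -0.44), and none was higher, where 1.84% of all genes were lower and 0.35% higher.

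Of 18 related genes of the spectrin, ankyrin, 4.1, anion exchanger, Rh and transglutaminase families, 8 had enough UMIs in blood. *Sptbn1* and *Sptan1*, the beta and alpha spectrins of most tissues, were higher in tdTom+ blood cells, with log2 ratios of 2.15 (2.06 to 2.24) and 1.39 (1.17 to 1.61), and none was lower, where 11.3% of all genes were higher and 3.14% lower. In blood *Sptbn1* had 178 CPM in tdTom+ and 40.2 CPM in host cells. Its early ratio of 1.60 (1.43 to 1.77) was opposite in sign to that of *Sptb*, and no other of the 7 measured passed the fold there, where 6.52% of all genes were higher. From early to later tdTom- cells 1 of 7 was lower, *Sptan1* with a ratio of -1.82 (-2.29 to -1.34), and none was higher. Of all genes 1.39% were lower and 0.702% higher in that comparison. Outside blood none of 15 passed the fold, as 1.84% of all genes did in the lower and 0.35% in the higher direction.

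Across 73 cell groups, which share 2 libraries, the 8 genes were alike to unequal degrees. With Pearson's r of log2(CPM + 10) as a description, *Epb42* and *Slc4a1* had r = 0.96 and *Ank1* and *Rhd* 0.93, *Rhd* and *Rhag* 0.76, and *Epb41* had r of 0.38 to 0.59 with the other 7. Of 10932 other genes the most alike were *Trim10* (0.99) and *Alas2* (0.99) for *Epb42*. For *Slc4a1* they were *Ermap* (0.97), *Hemgn* (0.97) and *6030468B19Rik* (0.97), and for *Ank1* *Prss50* (0.98), *Add2* (0.98) and *Nxpe2* (0.97). For *Rhd* they were *Add2* (0.95), *6030468B19Rik* (0.94) and *Prss50* (0.94), and for *Rhag* *Kel* (0.96), *Hbq1b* (0.95) and *Cpne7* (0.95). For *Sptb* they included *Rfesd* (0.93) and *Ermap* (0.92). *Gypc* was most like *Zc3hav1* (0.93), *AC132623.2* (0.92) and *Spns2* (0.92), and *Epb41* like *Supt4a* (0.77), *Rpl14* (0.77) and *Eif1ad* (0.75). With ranks in place of log values, none of the 3 genes was shared for *Epb41*, *Sptb*, *Ank1*, *Slc4a1* or *Rhag*.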

How the data were processed

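Single-cell libraries (10x Chromium, v3 chemistry) were mapped by the authors to mm10 (GRCm38) with Cell Ranger 3.0.2, and spliced and unspliced matrices were extracted with velocyto. Both layers were deposited as raw UMI counts of each gene in each cell, which the authors had not normalized. Deposited cell metrics give the percent of mitochondrial UMIs, with medians of 2.07% and 2.08%, and list 6 cells that the tables do not hold. Spliced UMIs summed to 167940767 (tdTom+) and 157174026 (tdTom-). Author cell types were not used, so groups may differ from those of the study.

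Doublets were called with Scrublet per library (4.58% and 5.98%) and left out, together with clusters of over 50% called cells. Cells were clustered with scanpy 1.11.5 and leidenalg 0.10.2 (embryo: 2500 variable genes, 50 components, 20 neighbours, resolution 1.5; 3983 blood and endothelial cells: 2000, 30, 15 and 1), leaving out 64 genes, among them the 8 and the lists. A cluster was named X-like where at least 3 markers were raised 2-fold (10 CPM added), more than of any other class, unless another class had more markers among its top 10 genes by fold. Classes that tied on both counts, and shallow clusters with no marker among those 10, stayed unnamed. CPM are UMIs summed over a group per 1000000 spliced UMIs, with exact Poisson intervals. Shares have exact Clopper-Pearson and log2 ratios exact conditional intervals (scipy 1.17.1). They were checked on counts simulated under the models they assume, a check that does not cover uneven spread of UMIs between cells. Named were the 8 genes, the 4 largest ratios per direction past the fold in each list, and the 3 genes most alike. A few genes of these are not reported here. Members, lists and comparisons were chosen with earlier results of these data known. Alternatives were the denominator, centring, layer, thinning, doublets, cell weighting, background subtraction, matching, resolution, UMI minimum and fold, with 5 added after seeing the data. Promoters came from RefSeq and positions from GENCODE vM21.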

Additional observations from a re-analysis of the deposited data

Results flagged for a closer look

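The tdTom+ over tdTom- log2 ratio of *Epb41* lay on opposite sides of 0 in different cells. It was 0.22 (0.10 to 0.34) for matched tdTom+ cells over tdTom- early erythroid-like cells and -0.21 (-0.26 to -0.16) outside blood. The difference between them was not tested. In the unspliced layer the ratios were -0.08 (-0.17 to 0.02) and -0.23 (-0.27 to -0.19).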

How the results depend on the processing

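Alternatives were run for the ratios over all blood cells, in the early comparison and of later over early cells, and none past the 2-fold changed sign, whereas *Rhd* outside blood did between the layers (-1.56 spliced, 0.77 unspliced). Of those closer to 0, *Epb41* over all blood cells was -0.21 (-0.27 to -0.15) when centred, -0.10 (-0.16 to -0.04) without globin UMIs and -0.14 (-0.18 to -0.10) with unspliced UMIs added, and its later over early ratio was -0.01 (-0.24 to 0.22) when thinned. Of the counts of the 8 genes past the fold, 69 repeats were within 1.5 times the reported count and 5 were not. With cells thinned to 5000 UMIs 1 gene was lower in matched tdTom+ cells and 1 was higher in later tdTom- cells. The count in later cells fell since the ratios of *Rhd* and *Rhag* were 0.95 (0.41 to 1.53) and 0.74 (0.02 to 1.52). In the early comparison *Sptb* and *Rhd* were still lower when thinned, at -2.74 (-3.60 to -1.91) and -4.79 (-6.77 to -3.26), on fewer than the minimum of UMIs and in another random draw than that of the shares of cells. With the mean over cells of each cell's CPM the genes higher in later cells were 1, with *Rhd* at 0.96 and *Rhag* at 0.80. The cause of these shifts was not tested. With a log2 ratio of 0.5 as the fold the genes higher in later cells were 5, and 1 gene was higher in matched tdTom+ cells. Of the other values 229 repeats moved by less than their interval or 1.5 times and 60 by more. The ratio of *Rhag* over all blood cells was 0.04 (-0.35 to 0.44) when thinned, and that of *Slc4a1* in the early comparison was -1.34 (-1.71 to -0.96) with cosine distance in matching. Of all genes, a log2 ratio of 0.5 gave 25.9% higher and 6% lower in blood, 14.2% and 6.43% in early cells, 2.33% and 9.62% in later over early cells and 2% and 6.5% outside blood. A minimum of 20 UMIs gave 3.36% lower in later over early cells and 0.818% higher and 2.93% lower outside blood, and a minimum of 1 UMI gave 3.2% lower in later over early cells and 0.807% higher outside blood. No paired analysis was possible because each fraction was 1 library and no test was run, and no replicate could be left out. Depth limits *Ank1* and *Rhd* in tdTom+ blood, which rest on 5 and 13 spliced UMIs.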

Other observations

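A later erythroid-like sub-cluster was the most frequent among the nearest tdTom- cells for only 30 tdTom+ blood cells, under the minimum of 50 for a group. In them *Slc4a1* was at 107 CPM (82.4 to 136), against 151 CPM in tdTom- later cells, and *Rhag* at 29.5 CPM (17.5 to 46.7), against 21.7 CPM. *Rhd* gave 5 UMIs, or 8.21 CPM (2.67 to 19.2), *Ank1* gave 2, or 3.28 CPM (0.398 to 11.9), and *Sptb* gave 3, or 4.92 CPM (1.02 to 14.4), against 44.4 CPM, 20.7 CPM and 23.6 CPM in tdTom- later cells.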
